A study of Mus musculus with 3 samples.

Results

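The collagen gene family was examined in chromatin immunoprecipitation sequencing (ChIP-seq) peak lists of the transcription factors ATF4 and CEBPG. A member was any protein-coding gene of the mouse RefSeq annotation whose symbol is Col, a number, the letter a and a number, which gave 44 of 21887 genes. For each member, peaks overlapping the gene span or the 20 kb on either side (the window of the gene) were collected. The cells were wild-type C57BL/6 mouse embryonic fibroblasts, primary cells isolated at E13.5, passaged, plated for 24 hours and kept for 3 hours in medium deprived of amino acids (AAD). The groups used were 1 library with the ATF4 antibody C-20 and 1 library with a CEBPG C-terminal antiserum. A library with a GFP antibody, from cells treated the same way, was not analysed here. No library of fed cells was used, so nothing below is a change on deprivation. ChIP-seq peaks do not report RNA, and neither the collagen RNA levels nor the fibroblast markers of these cells could be checked.

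Collagens are secreted or membrane-bound proteins with a triple helix built from repeats in which glycine recurs at a fixed spacing and proline is frequent. Fibroblasts are a main source of the fibrillar collagens. ATF4 is the transcription factor that accumulates when amino acids are scarce and drives genes for their synthesis and uptake. CEBPG is a C/EBP family protein that has little activating capacity of its own and pairs with ATF4, and the pair binds composite C/EBP-ATF response elements.

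The CEBPG list held 25419 peaks and the ATF4 list 2642. Each peak carries the authors' own score, which starts at 40 and is used below only to rank and describe peaks within 1 list. No read depth could be read from these lists. With 1 library per antibody there is no replicate and no test, and every count below describes these 2 peak lists. Beside the main counts stand the share of all 21887 protein-coding genes and, because long windows hold more peaks, the number that genes of like length would give. For the latter, all genes were divided into 10 classes by window length, and the share of genes with a peak in each member's class was summed over the members.

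Most collagen genes had a CEBPG peak in their window, and few had an ATF4 peak. CEBPG peaks lay in the windows of 33 of 44 members (75%), against 43.7% of all genes. The like-length number was 29.8 (67.7%), so the observed count was 1.11 times that number. ATF4 peaks lay in the windows of 6 members (13.6%), against 7.44% of all genes and a like-length number of 6.91, a ratio of 0.869. An ATF4 peak overlapping a CEBPG peak was found at 1 member, Col1a2 (2.27%), against 1.78% of all genes and a like-length number of 1.46. For CEBPG and for ATF4 the share of genes of like length lay nearer to that of the members than the share of all genes did.

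Collagen genes are long. Their spans ran from 7.11 kb (Col10a1) to 420 kb (Col25a1) with a median of 114 kb, where the median of all genes was 17.2 kb. Of the 44 members, 23 fell in the longest class, and of these 19 (82.6%) had a CEBPG peak, against 84.2% of all genes of that class. The 5 members of the second-longest class all had a CEBPG peak, against 65.4% of its genes, and 4 of 5 did in the class below it, against 53.6%. In the class with a median span of 29.2 kb the order was the other way. Of its 6 members only Col6a2 had a CEBPG peak, against 44.7% of the class, and Col2a1, Col7a1, Col8a2, Col11a2 and Col20a1 had none. The still shorter classes with members did not share that order. In them 1 of 1, 2 of 2 and 1 of 2 members had a CEBPG peak, against 29.2%, 35.1% and 39.7% of their genes. ATF4 peaks lay at 5 of the 23 longest members (21.7%), against 23.8% of that class, and at Col1a2.

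**Figure D1:**
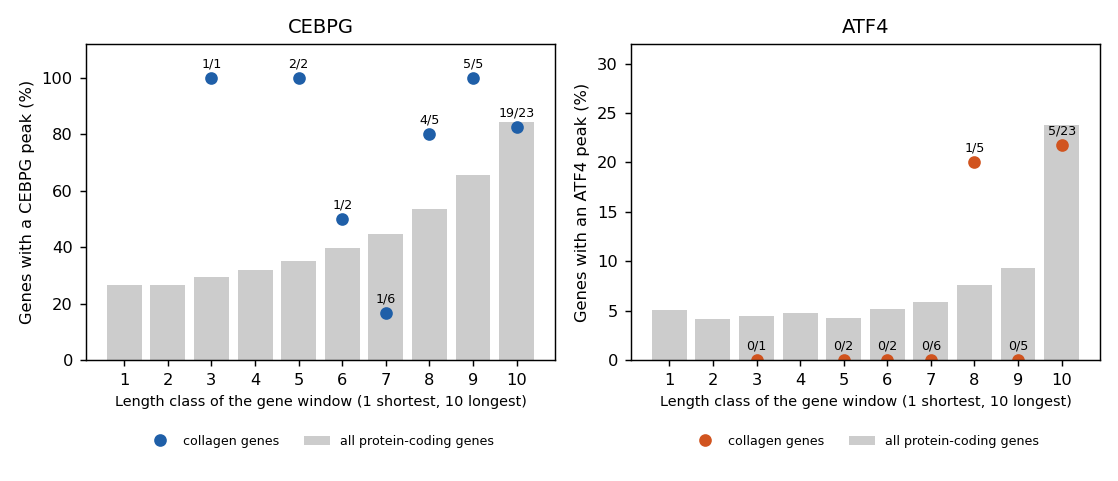
Share of genes with a CEBPG peak (left) or an ATF4 peak (right) in the window, by length class from 1 (shortest) to 10 (longest). Grey bars are all protein-coding genes and points are collagen genes, with members with a peak over members in the class; in class 10 the points lie close to the bars (19 of 23 members against 84.2%, and 5 of 23 against 23.8%).

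CEBPG peak density was slightly below that of all genes, where the count of members with a peak was above the like-length number. After overlapping windows of neighbouring members were merged, the family covered 7.01 Mb in 37 separate stretches and held 69 distinct CEBPG peaks, or 0.984 per 100 kb. The windows of all protein-coding genes, merged in the same way, held 0.996 per 100 kb. That rate is not matched for length. Windows of the longest and of the second-longest class each held 1.06 per 100 kb. For ATF4 the densities were 0.0856 per 100 kb (6 peaks) and 0.098 per 100 kb. Inside the collagen gene spans alone, CEBPG density was 0.882 per 100 kb, against 1.05 inside all gene spans.

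The peaks were mostly low in score. The 69 CEBPG peaks ranged from 40.14 to 629.67 with a median of 49.43, where the 14309 CEBPG peaks in the windows of all genes had a median of 47.74. A score of 100 or more was reached by 11 of the 69 (15.9%), against 14% of the peaks near all genes. No collagen peak reached 1000, a level held by 1.41% of the peaks near all genes. By gene, 11 of 44 members had a CEBPG peak of 100 or more, against 10.9% of all genes and a like-length number of 9.18. The 6 ATF4 peaks ranged from 43.76 to 59.31 with a median of 45.6, close to the 46.4 of the ATF4 peaks near all genes. None reached 100, where 7.1% of the latter did, and by gene 0 of 44 members had such a peak, against 0.635% of all genes and a like-length number of 0.468.

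**Figure D2:**
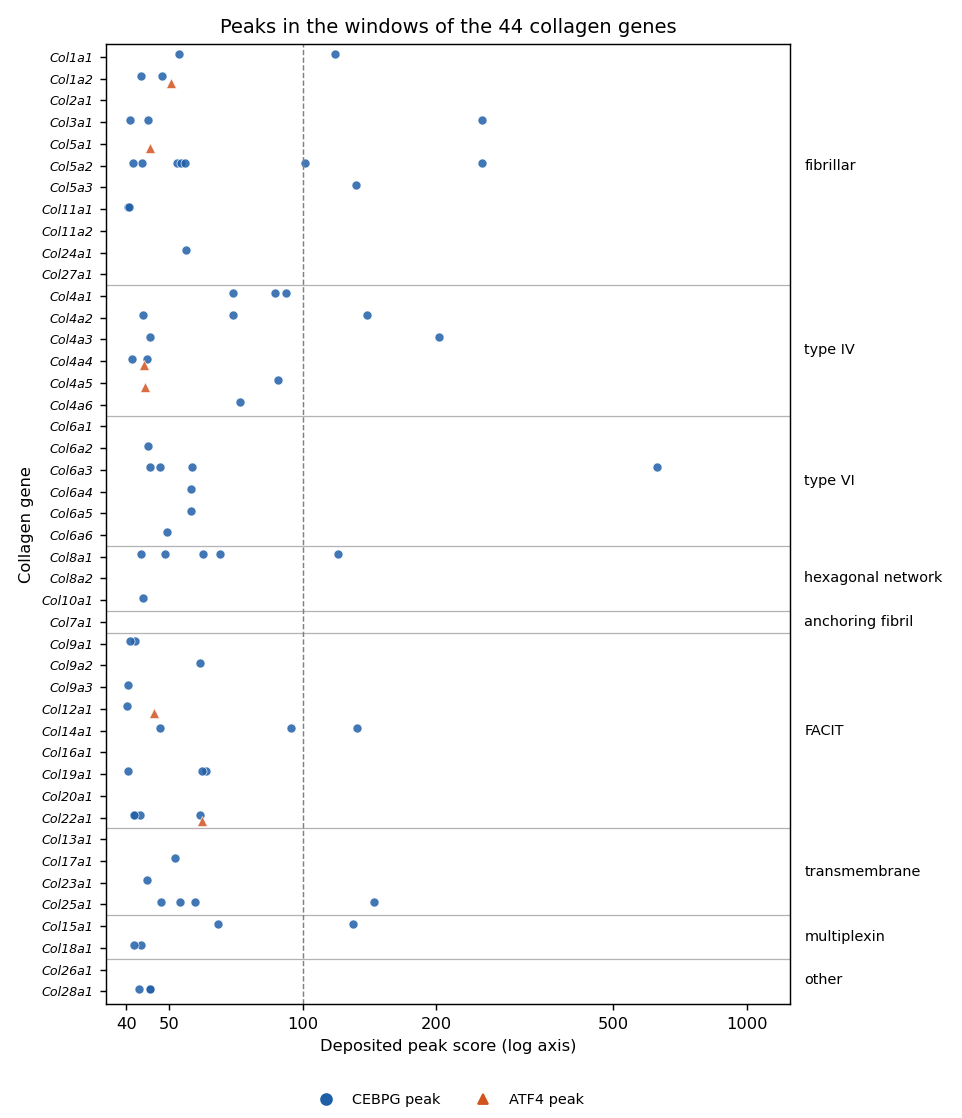
Score of every CEBPG (blue circle) and ATF4 (orange triangle) peak in the window of each collagen gene, on a log axis, with genes grouped by the structure of their collagen. The dashed line marks a score of 100; all 6 ATF4 peaks lie left of it, and Col6a3 holds the highest CEBPG score (629.67).

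Fibrillar collagens form the banded fibrils of connective tissue. CEBPG peaks lay at 7 of their 11 genes (like-length number 7.06), with 17 distinct peaks, or 1.16 per 100 kb, and ATF4 peaks lay at 2 (1.58). Col1a1 and Col1a2 encode the chains of type I collagen, the main product of fibroblasts. In Col1a1 a pair of CEBPG peaks lay side by side inside the gene, with scores of 117.85 and 52.68, at 2.7 kb and 2.92 kb from the lower-coordinate end. Col1a1 had no ATF4 peak. Col1a2 had its peaks beyond the 3′ end of the gene. The ATF4 peak (chr6:4546090-4546290, score 50.52) and the first CEBPG peak (chr6:4546085-4546206, 43.05) overlapped 4.65 kb and 4.6 kb past the end, some 40.6 kb from the start. A CEBPG peak of 48.17 lay at 6.77 kb past the end. The ATF4 score was 810th and the overlapping CEBPG score 18423rd in its list, so the only shared site of the family was a weak one in the CEBPG list.

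Col3a1, the chain of type III collagen, and Col5a2, a chain of the fibril-nucleating type V, are neighbours and share the strongest CEBPG peak of the fibrillar group. That peak (chr1:45355903-45356333, score 253.83) lay between them, 6.41 kb from Col3a1 and 18.2 kb from Col5a2. It ranked 1365th in the CEBPG list. Col3a1 had a peak of 44.77 inside the gene and one of 40.66 at 2.9 kb beyond it. Col5a2 had 7 CEBPG peaks in its window, more than any other member, or 4.14 per 100 kb. Of these, 5 lay inside the gene, with scores from 41.41 to 101.04, and 1 outside it had a score of 54.13. Neither gene had an ATF4 peak.

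The other type V genes differed from Col5a2 and from each other. Col5a1 had no CEBPG peak and an ATF4 peak (chr2:27889142-27889369, score 45.18) 2.83 kb downstream of its start. It was the only one of the 35 members with a listed start that had an ATF4 peak within 5 kb of that start (2.86%, against 1.57% of genes). Col5a3 had a single CEBPG peak of 131.55 inside the gene. Among the fibrillar collagens of cartilage and of other tissues, Col11a1 (40.4 and 40.49) and Col24a1 (54.36) had low CEBPG peaks. Col2a1, the cartilage type II collagen, Col11a2 and Col27a1 had no peak in either list.

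Type IV collagens form the network of basement membranes. All 6 genes had a CEBPG peak (like-length number 5.05) and 2 had an ATF4 peak (1.43), at a density of 0.942 CEBPG peaks per 100 kb. Col4a1 and Col4a2, which start next to each other on opposite strands, shared a CEBPG peak of 69.44 inside Col4a1, 6.79 kb and 6.77 kb from their starts. Col4a1 also had peaks of 91.76 inside it and 86.61 outside it. Col4a2 had one of 139.47, 22.6 kb downstream of its start, and one of 43.64. Col4a5 (88.02) and Col4a6 (72.16) each had 1 CEBPG peak inside the gene. The ATF4 peaks were at Col4a4 (43.76, inside the gene) and Col4a5 (44.12, 11.7 kb outside it and 10.1 kb from the span of Irs4, a nearer gene). Neither overlapped a CEBPG peak.

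The strongest CEBPG peak in the window of Col4a3 belonged by position to another gene. Col4a3 had peaks of 45.21 near one end and of 202.41 at 2.77 kb outside the gene (chr1:82724730-82724925). The second peak lay across the first start of Mff, the gene of a mitochondrial fission factor, and within the Mff promoter entry. Its centre was 0.063 kb from the Mff span. The part of the peak before the first Mff start (chr1:82724730-82724889, plus strand, RefSeq, GRCm38.p6) is shown because it is the only peak of 100 or more near a collagen gene whose bases a promoter entry covers.
Mff promoter part of the peak: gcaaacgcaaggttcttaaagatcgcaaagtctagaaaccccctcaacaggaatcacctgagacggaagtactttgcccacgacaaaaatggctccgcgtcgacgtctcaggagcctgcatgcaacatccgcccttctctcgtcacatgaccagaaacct
None of the motifs searched in the promoters occurs in this peak.

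Type VI collagens form beaded microfilaments around cells. CEBPG peaks lay at 5 of 6 genes (like-length number 3.65) and ATF4 peaks at none (0.627). Col6a3 carried the highest-scoring CEBPG peak of the family (chr1:90834412-90835076, score 629.67), which was 510th in the list, within the top 2.01%. It was 665 bp wide, the widest of the 69, where their median was 135 bp. It lay inside the gene, 9.23 kb downstream of the start. The 3 other peaks at Col6a3 scored 45.21, 47.68 and 56.21. It was also the only collagen peak of 500 or more, so 1 of 44 members reached that level, against 2.75% of all genes and a like-length number of 2.39. Col6a1 had no peak and Col6a2 one of 44.69. Col6a4 and Col6a5 shared a peak of 55.99 between them, and Col6a6 had one of 49.43. Col6a1 and Col6a2 encode the chains that assemble with that of Col6a3, and neither had a CEBPG peak of 50 or more. Only 24.9% of all genes had such a peak, so its absence at these genes is not read as a difference.

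**Figure D3:**
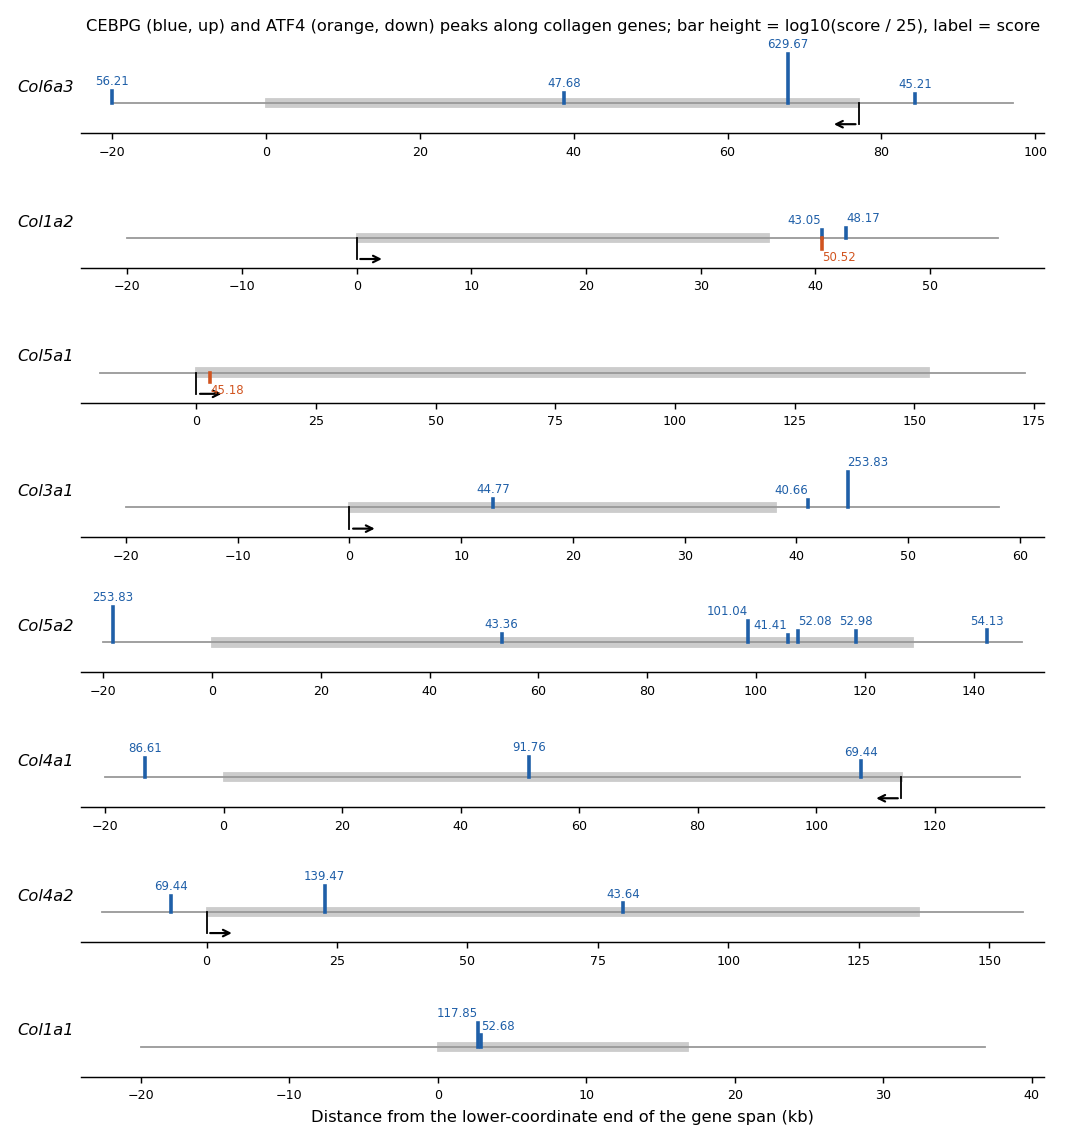
Positions of CEBPG (blue, upward) and ATF4 (orange, downward) peaks along 8 collagen genes, in kb from the lower-coordinate end of the gene span (grey box), with the score written at each peak and the bar height taken from its logarithm. Arrows mark listed starts and their direction (none is listed for Col5a2 and Col1a1); the peak of 629.67 lies inside Col6a3, and the shared ATF4 and CEBPG peaks lie past the end of Col1a2.

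Among the fibril-associated collagens with interrupted helices (FACIT), which coat fibrils, CEBPG peaks lay at 7 of 9 genes (like-length number 5.75) and ATF4 peaks at 2 (1.27). Col14a1 had CEBPG peaks of 132.25 and 94.14 inside the gene. A further peak, of 47.63, lay in the neighbouring gene Mrpl13. Col12a1, a FACIT of dense connective tissue, had an ATF4 peak of 46.07 inside it, 14.4 kb from an end. Its CEBPG peak scored 40.14, the lowest of the family, on the other side of that end. Col22a1, found at tissue junctions, had the highest ATF4 score of the family (59.31, rank 403), 72.5 kb inside the gene. Its 4 CEBPG peaks scored from 41.53 to 58.59, and none overlapped the ATF4 peak. The type IX genes and Col19a1 had CEBPG scores of 60.31 or less. Col16a1 and Col20a1 had no peak.

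The smaller groups had no ATF4 peak, where the like-length number of each was also under 1, from 0.059 for the anchoring fibril gene to 0.791 for the transmembrane collagens. The network-forming Col8a1 had 5 CEBPG peaks, the strongest of 119.66. One of 59.61 lay 4.37 kb upstream of its start, the shortest distance from a start to a CEBPG peak among the 35 members with a listed start. Col10a1, the collagen of hypertrophic cartilage, had 1 low peak (43.64) at 0.129 kb from its 3′ end, and Col8a2 had none. The transmembrane collagens had CEBPG peaks at Col25a1 (144.74 the highest of 4), Col17a1 (51.44) and Col23a1 (44.43), and none at Col13a1. Both multiplexins, Col15a1 (129.56 and 64.22) and Col18a1 (43.18 and 41.6), had peaks. Col28a1 had 3 peaks of 45.25 or less. Col7a1, of the anchoring fibrils of skin, and Col26a1 had none. In all, 10 members had no peak in either list, namely Col2a1, Col6a1, Col7a1, Col8a2, Col11a2, Col13a1, Col16a1, Col20a1, Col26a1 and Col27a1, while 34 had at least 1 (77.3%, against 45.8% of all genes and a like-length number of 30.6).

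**Figure D4:**
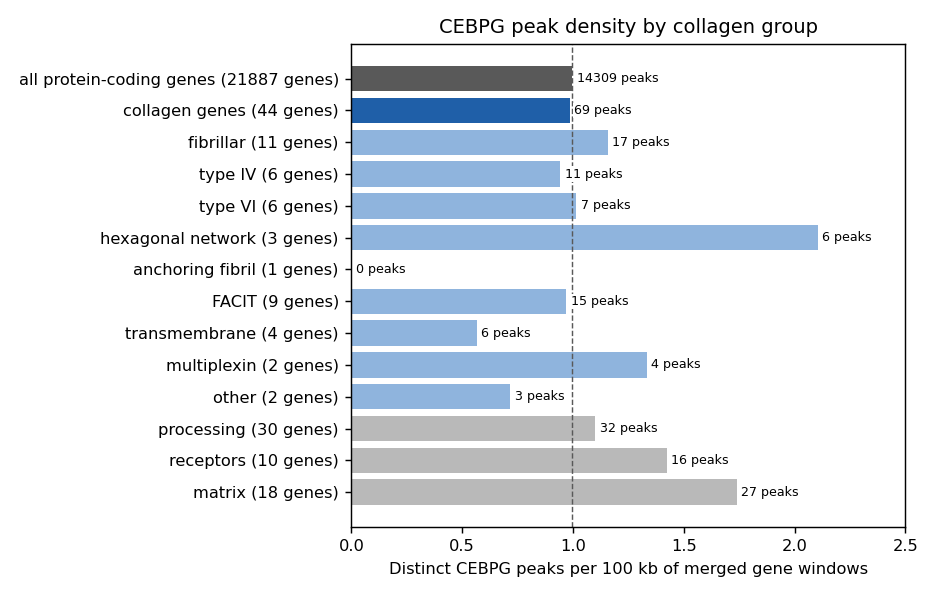
Distinct CEBPG peaks per 100 kb of merged gene windows, for all protein-coding genes, the collagen genes, their structural groups and 3 other lists of collagen biology, with the number of peaks beside each bar. The dashed line marks the density of all genes (0.996); the collagen genes together lie at 0.984, and the small groups rest on few peaks.

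Neighbouring members are not independent. The windows of 13 members ran into those of other members in 6 stretches, and 3 CEBPG peaks were counted for more than 1 member (between Col3a1 and Col5a2, Col4a1 and Col4a2, and Col6a4 and Col6a5). Counted by stretch, 26 of 37 held a CEBPG peak and 6 an ATF4 peak, with no like count made over all genes. Of the 69 CEBPG peaks, 7 were nearer to the span of another gene than to any collagen gene.

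Most CEBPG peaks in collagen windows lay inside the genes, and so did most near all genes. Per 100 kb the order differed. At the collagens density was lower in the spans (0.882) than in the windows (0.984). For all genes it was higher in the spans (1.05) than in the windows (0.996). Of the 69 distinct peaks, 48 (69.6%) overlapped a collagen gene span, where 75.6% of the CEBPG peaks near all genes overlapped a gene span. Of the 72 pairs of a CEBPG peak and a member, 48 had the peak centre inside the gene, 41 of them more than 5 kb from both ends. In 4 pairs it lay within 1 kb of an end, at Col4a3, Col4a4, Col10a1 and Col22a1. No like count of pairs was made over all genes. RefSeq promoter entries, with the 250 bases before and 50 after a start, matched 35 of 44 members (38 entries). None of these entries carried a peak of either factor, where 1.64% of 17492 genes with an entry had a CEBPG peak on it and 0.189% an ATF4 peak. Of the 35 members, 0 had a CEBPG peak centred within 1 kb of a start, against 3.98% of genes, and 2 had one within 5 kb, Col8a1 and Col28a1 (5.71%, against 11.7%). Col4a3 and Col22a1, with peaks within 1 kb of an end, have no listed start. Within 5 kb of either gene end, 9 of 44 members had a CEBPG peak, against a like-length number of 8.81. The median distance from a start to the nearest CEBPG peak was 27.4 kb for the 35 members, against 42.7 kb for all genes. Neither this distance nor the shares counted from a start were matched for gene length. Entries were not matched for Col1a1, Col2a1, Col4a3, Col5a2, Col9a3, Col12a1, Col14a1, Col22a1 and Col26a1.

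The 250 bases before the start are shown for 3 members, each in the direction of transcription (RefSeq, GRCm38.p6). They are the gene with the highest CEBPG score (Col6a3, chr1:90843972-90844221, minus strand), the gene with the shared site (Col1a2, chr6:4505368-4505617, plus strand) and the gene with an ATF4 peak near its start (Col5a1, chr2:27886175-27886424, plus strand).
Col6a3: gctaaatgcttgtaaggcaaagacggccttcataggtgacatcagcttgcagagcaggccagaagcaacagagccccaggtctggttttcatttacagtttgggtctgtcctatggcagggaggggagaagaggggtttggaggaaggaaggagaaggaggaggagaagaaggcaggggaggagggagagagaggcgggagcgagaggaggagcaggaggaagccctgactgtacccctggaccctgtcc
Col1a2: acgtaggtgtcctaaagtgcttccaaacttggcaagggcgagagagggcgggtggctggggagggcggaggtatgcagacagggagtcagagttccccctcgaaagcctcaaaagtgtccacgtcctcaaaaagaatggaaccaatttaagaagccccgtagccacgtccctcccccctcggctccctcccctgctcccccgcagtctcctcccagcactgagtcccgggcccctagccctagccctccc
Col5a1: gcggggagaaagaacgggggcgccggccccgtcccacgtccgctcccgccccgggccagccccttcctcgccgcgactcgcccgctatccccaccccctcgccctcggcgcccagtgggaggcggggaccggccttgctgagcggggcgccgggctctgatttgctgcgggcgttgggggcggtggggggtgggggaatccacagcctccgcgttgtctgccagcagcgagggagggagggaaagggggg
These stretches differ in base composition, with a G and C content of 57.2%, 62% and 76.4%, and none holds a motif searched here.

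Motifs were counted in the collagen promoters. One of the 38 entries is 2.63%, so counts of 0 or 1 are not read as a trait of the family. The C/EBP-ATF response element was searched as TGATGNAA, the cyclic AMP response element as TGACGTCA, C/EBP sites as TTGCGCAA and TTGCATCA, and the AP-1 site as TGANTCA, all on both strands over the 300 bases of each entry. TTGCATCA read on the other strand is one of the forms of TGATGNAA. TGATGNAA, TTGCGCAA and TTGCATCA occurred in none of the 38 collagen entries, against 3.6%, 0.221% and 0.865% of all 21263 entries. TGACGTCA occurred in 1 (Col24a1, 2.63%), against 2.23%, and TGANTCA in 1 (Col6a1, 2.63%), against 6.99%. Both stretches are given with the motif in capitals. The Col24a1 stretch (chr3:145292413-145292472, plus strand) ends on the first transcribed base, and the motif that closes the Col6a1 stretch (chr10:76726128-76726187, minus strand) begins 90 bases before the start of Col6a1.
Col24a1: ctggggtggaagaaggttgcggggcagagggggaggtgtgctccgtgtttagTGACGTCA
Col6a1: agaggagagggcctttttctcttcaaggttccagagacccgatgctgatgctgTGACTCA
Neither promoter lay under a peak, and Col6a1 had none in its whole window. These letters are absent from or present in these windows only, and the bases under the collagen peaks themselves, other than at Mff, were not examined.

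Lists of related genes gave counts on the same rule. Enzymes and chaperones that process collagen had a CEBPG peak at 17 of 30 genes (like-length number 15.5) and an ATF4 peak at 4 (2.85). Their highest CEBPG scores were at Serpinh1, the collagen chaperone HSP47 (3205.56), Tll1 (242.51) and P4ha2, a prolyl hydroxylase subunit (193.54). ATF4 peaks were at Serpinh1 (142.05), Colgalt1 (43.33), Loxl1 (41.05) and Pcolce2 (40.97), and Serpinh1 had an overlapping pair. Collagen receptors had a CEBPG peak at 6 of 10 genes (6.08), led by Ddr2 (912.25), Itga2 (323.78) and Itga1 (85.51), and an ATF4 peak at 1 (1.09), Lair1 (43.14). Non-collagen matrix genes had a CEBPG peak at 14 of 18 (8.77), led by Fbln2 (1422.29), Fbn1 (1012.6) and Ccn2 (403.13). ATF4 peaks were at 3 (1.34), with scores of 53.29 at Fbn1, 47.96 at Fbln2 and 40.08 at Postn, and Fbn1 also had an overlapping pair. Each of these lists thus held a gene with a CEBPG score above the collagen maximum of 629.67. A score of 500 or more was reached by 1 of 30, 1 of 10 and 2 of 18 genes. It was reached by 1 of 44 collagen genes and 2.75% of all genes. No like-length number was made for these lists at that level. The lists were chosen with earlier results of these data known. CEBPG density was 1.1, 1.42 and 1.74 peaks per 100 kb in these lists, against 0.984 at the collagens. These differences were not tested.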

How the data were processed

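ChIP-seq peak lists of 1 CEBPG and 1 ATF4 library were used. Each list holds positions and a peak name that ends in the authors' deposited score, read from column 4, since column 5 was blank and column 6 held 0. Tools listed in the submitters' processing notes are BWA, HOMER, MACS 1.4.2 and Trimmomatic, with the build mm10, without settings or roles. Any use of the GFP library as background is not stated. Depth is unknown, so list lengths cannot be corrected for it.

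Gene spans came from RefSeq for GRCm38.p6, the same build, with 21887 protein-coding genes on the nuclear chromosomes, and starts from its promoter table. A shared peak overlapped by at least 1 bp. Windows were clipped at chromosome starts, and positions are 1-based. Distances are from peak centres. Counting was done in Python 3.11.15 with pandas 2.3.3 and numpy 2.4.6 and tested on simulated data. No statistical test was made. Values are given for members with an ATF4 peak, the 10 highest CEBPG scores, members sharing a peak, 13 members named whatever their values, and, of the other lists, genes with an ATF4 peak and the 3 highest CEBPG scores. Others were named after their values were seen. The members and lists were chosen with earlier results of these data known. Alternatives changed the window, score minimum, peak width, overlap rule, gene assignment and length classes.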

Additional observations from a re-analysis of the deposited data

How the results depend on the processing

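Of 86 comparisons of a value with an alternative, 66 were unchanged, meaning within 1.5 times for a count of genes and within the 95% interval of the main value otherwise. That interval took the genes, or the peaks, of 1 library as independent units. It served only as a yardstick and is no error between cultures. The number of members with a CEBPG peak (33) was 9 within 5 kb of a gene end, 21 at scores of 50 or more and 11 at scores of 100 or more. Divided by the number from genes of like length it stayed between 0.994 and 1.2 over all 10 alternatives. Under the same 3 alternatives the members with an ATF4 peak (6) numbered 2, 2 and 0. Their ratio to the like-length number (0.869) became 1.95 within 5 kb of an end and 0 at scores of 100 or more. It was 1.07 with 5 length classes, on the other side of 1. The overlapping pair at Col1a2 was the only one, so the count and its ratio were 0 with gene spans alone and at scores of 50 or more or 100 or more. The ratio (0.686) was 3.52 within 5 kb of an end and 1.49 with at least 50% of both peaks overlapping, on the other side of 1, each from this 1 pair and counted among the unchanged. CEBPG peaks per 100 kb (0.984) came to 1.3 within 5 kb of an end, 0.485 at scores of 50 or more and 0.157 at 100 or more, and ATF4 peaks per 100 kb (0.0856) to 0.237, 0.0285 and 0. A score minimum lowers counts and rates by construction, and a smaller stretch lowers counts alone. The rates within 5 kb of an end rest on 11 CEBPG and 2 ATF4 peaks. No like rate over all genes was made there. Median scores were unchanged in all 4 alternatives for each factor. For ATF4 no other outcome was possible. Its interval spanned all 6 scores, from 43.76 to 59.31, and every alternative kept those peaks or some of them. These 4 are among the 66. So are others that could not change. A count of members with a peak does not depend on the number of length classes. The widest collagen peak was 665 bp for CEBPG and 286 bp for ATF4. Leaving out peaks over 1 kb wide could thus not change a count, a rate or a median score. The 66 is therefore not a measure of how stable the results are.

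No paired analysis was possible because each antibody had 1 library. For the same reason no count carries an error between cultures. The depth of the libraries is unknown, so absence of a peak is not absence of binding, and the lower number of ATF4 peaks cannot be told apart from depth or antibody. The longest length class is wide, and members within it are shorter than some of its genes. Without the genome sequence, exons and introns, and the bases under most peaks, were not examined.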
